A study of Mus musculus with 503 samples.

Results

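Smooth muscle-like and pericyte-like cells of the uninjured mouse spinal cord were compared in single-cell RNA profiles of EGFP+ perivascular cells. Both classes were chosen by measured values: a cell needed 20000 counts or more, Pecam1 below Pdgfrb and Col1a1 under 200 CPM (counts per 1e6 counts of the cell). Smooth muscle-like cells had Myh11 at 500 CPM or more, and pericyte-like cells had Kcnj8 at 100 CPM or more with Myh11 under 50 CPM. Of 276 uninjured cells (503 cells in the series), 245 passed the depth cut, 219 of them the Pecam1 cut and 185 of those the Col1a1 cut. These 185 cells held 33 smooth muscle-like cells, 110 pericyte-like cells, 41 cells in between with Myh11 from 50 to under 500 CPM, and 1 cell with low Myh11 and no Kcnj8.

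All cells came from adult mice labelled female (the study's methods describe animals of both sexes for sequencing) of the genotype GLAST-CreERT2;R26R-tdTomato;Pdgfrb-eGFP, so both classes carry all 3 transgenes. The Cre recombinase is driven by GLAST (Slc1a3, a glutamate transporter) and is active only after tamoxifen; recombined cells keep tdTomato, and EGFP follows Pdgfrb, whose growth factor receptor is shared by mural cells and fibroblasts. Cells were sorted singly as tdTomato+EGFP+ or tdTomato-EGFP+, from cord freed of its outer meninges, and their full-length transcripts were sequenced with Smart-seq3. Plate 209 held 130 of the uninjured cells and plate 213 the others, with both sorted populations on each plate. The reporters have no rows in the count table, so tdTomato and EGFP are known from the sort alone. No label names an animal. Each class was therefore treated as 1 sample, with no test, and intervals below are exact 95% intervals for counting error only.

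Pericytes and vascular smooth muscle cells are the mural cells of blood vessels. Smooth muscle cells encircle arteries and arterioles, narrow them with actin and smooth muscle myosin, and set their tone through calcium, potassium channels and receptors for vasoactive signals. Pericytes lie on capillaries within the endothelial basement membrane, carry little of the contractile apparatus, and in the central nervous system have high ATP-sensitive potassium channel and transporter gene expression.

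The classes were of like depth. Smooth muscle-like cells had 69444 to 614928 counts with a median of 232437, and pericyte-like cells 27097 to 801455 with a median of 269820. Summed, the classes held 9186355 and 32388783 counts. The median number of genes detected was 6235 in smooth muscle-like cells and 7054 in pericyte-like cells, and mitochondrial genes took a median of 1.15% and 0.992% of counts. A smooth muscle-like cell contributed at most 6.69% of its class.

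Levels of the 5 genes of the rule are a description and no finding. Kcnj8 encodes the pore of an ATP-sensitive potassium channel, and Myh11 the smooth muscle myosin heavy chain. Nearest to the Myh11 cut were cells at 503, 527 and 527 CPM inside and 472, 453 and 431 CPM outside. The Kcnj8 cut separated cells at 184 and 220 CPM from the 1 cell at 0, and the Col1a1 cut separated 169 CPM from 635 CPM. Kcnj8 was not used for smooth muscle-like cells: 14 of the 33 also had 100 CPM or more, and the other 19 were below. All 41 in-between cells had Kcnj8 at 100 CPM or more. The classes are thus the ends of a range in Myh11 with cells in between.

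**Figure D1:**
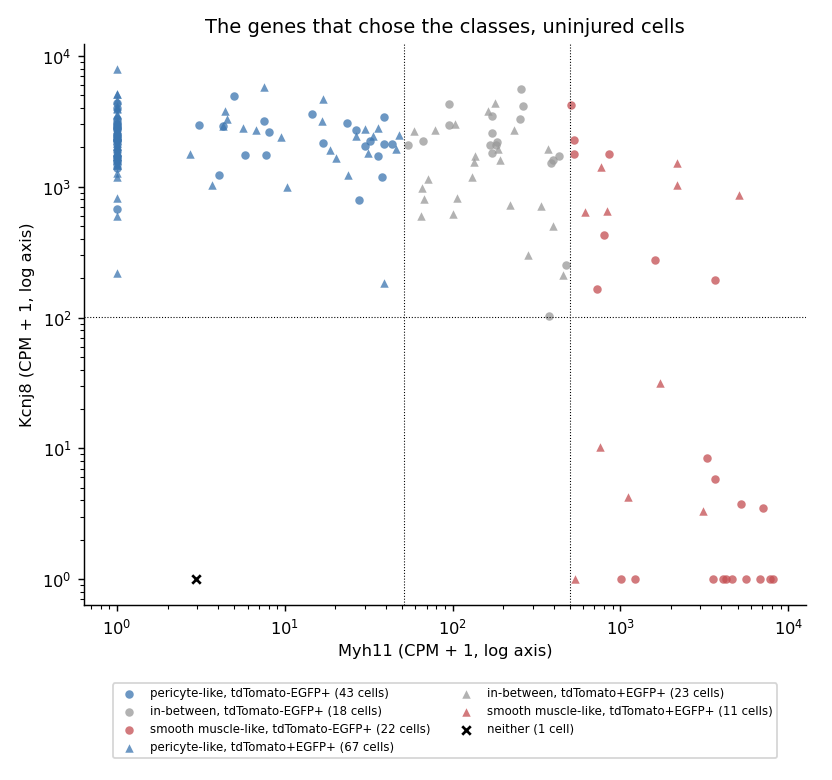
Myh11 (x axis) and Kcnj8 (y axis) in CPM + 1 on log axes for the 185 uninjured cells that passed the depth, Pecam1 and Col1a1 cuts; colour gives the class, the marker shape the sorted population and dotted lines the cuts. The 41 in-between cells bridge the classes, and 14 smooth muscle-like cells lie above the Kcnj8 line.

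The name of the smooth muscle-like class was checked against markers other than Myh11. Acta2 (smooth muscle actin) was at 0 CPM in the lowest smooth muscle-like cell, 3411 CPM in the median cell and 14246 CPM in the highest. The 110 pericyte-like cells ranged from 0 to 278 CPM with a median of 0. In 27 smooth muscle-like cells Acta2 was above every pericyte-like cell, and 6 lay within the pericyte-like range. Those 6 cells had Myh11 from 503 to 1011 CPM, but Acta2 of at most 8.60 CPM, Tagln of at most 4.30 CPM and Lmod1 of at most 3.06 CPM. Their Abcc9 was 444 to 1897 CPM, their Vtn 2522 to 7284 CPM and their median Kcnj8 1777 CPM. Acta2, Tagln and Lmod1 thus go against the name in 6 of 33 cells. Among the other 27 cells, with Acta2 of 1003 CPM or more, Tagln went down to 14 CPM and Pln and Lmod1 to 0, and 9 had Kcnj8 at 100 CPM or more. All 110 pericyte-like cells had Vtn of 2060 CPM or more and Abcc9 of 22 CPM or more, both pericyte markers that the rule did not use. Abcc9 encodes the channel partner of the rule gene Kcnj8, and Vtn was at 0 in only 2 smooth muscle-like cells. Among other pericyte markers, median Atp13a5 was 1140 CPM in pericyte-like and 391 CPM in smooth muscle-like cells. Medians of Rgs5 (4108 and 4408 CPM) and Cspg4 (587 and 798 CPM) were higher in smooth muscle-like cells.

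Endothelial transcripts differed between the classes. Summed over 14 endothelial marker genes, a cell's level ran from 474 CPM through a median of 3424 CPM to 26920 CPM in smooth muscle-like cells. In pericyte-like cells it ran from 2407 CPM through 20960 CPM to 41390 CPM, which overlaps the 26 cells removed for Pecam1 (13350, 25950 and 53410 CPM). No marker of this list was at 0 in either class. Cldn5, the main tight junction claudin of brain and cord endothelium, had a median of 2263 CPM in pericyte-like cells, 453 CPM in smooth muscle-like cells and 2906 CPM in the cells removed for Pecam1. Only 4 pericyte-like cells had Cldn5 under 200 CPM, against 16 smooth muscle-like cells, all 16 with Acta2 of 2542 CPM or more. Their part in the differences between the classes was not tested; differences among cells with Cldn5 at 200 CPM or more in both classes (17 smooth muscle-like cells, which include all 6 with little Acta2, and all but 4 pericyte-like cells) are given beside the main values where they bear on a result.

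Levels of summed counts were compared as differences of log2(CPM + 1), smooth muscle-like minus pericyte-like, and a difference of 1 or more in size is called 2-fold. Of 10397 genes at 10 CPM or more in the mean of the classes, 1128 (10.8%) were 2-fold higher in smooth muscle-like cells and 1219 (11.7%) in pericyte-like cells. These shares of all genes are the background for the counts of each gene list below. The median over all 10397 genes was -0.04. Of the 1128 genes, 984 were also 2-fold higher on plate 213 alone and 705 on plate 209 alone. For the 1219 these numbers were 1078 and 798. Among cells with Cldn5 at 200 CPM or more, 668 (59.2%) and 781 (64.1%) kept a 2-fold difference in the same direction. Of the 14 endothelial markers 5 were 2-fold higher in pericyte-like cells and 0 in smooth muscle-like cells, with a median of -0.85; Kdr, a VEGF receptor of endothelium, was at -1.61, Itm2a at -1.60, Cldn5 at -0.86 and Esam at -0.38.

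Contractile genes were higher in smooth muscle-like cells as a list. Of 19 genes on the list, 16 besides Myh11 passed 10 CPM, 10 were 2-fold higher in smooth muscle-like cells and 0 in pericyte-like cells. The list's median difference was 1.75 (1.69 on plate 209 and 1.77 on plate 213), and 0.82 among cells with Cldn5 at 200 CPM or more. Per cell, the list without Myh11 summed to 3371, 19450 and 56420 CPM in the lowest, median and highest smooth muscle-like cell, and to 2847, 4710 and 8776 CPM in pericyte-like cells.

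Acta2 led the list. Its summed level was 3238 CPM (3201 to 3275) in smooth muscle-like cells and 3.46 CPM (2.85 to 4.16) in pericyte-like cells, a difference of 9.50 (10.06 and 9.21 on the plates). Tagln, which encodes the actin-binding protein SM22, was at 0, 1033 and 5094 CPM in the lowest, median and highest smooth muscle-like cell and at most 104.9 CPM in a pericyte-like cell. It was above all pericyte-like cells in 26 of 33 smooth muscle-like cells, and its summed difference was 8.47. Lmod1 (leiomodin, which seeds actin filaments) had a median of 274 CPM in smooth muscle-like cells, was at 0 in 100 of 110 pericyte-like cells, and differed by 6.53. Among cells with Cldn5 at 200 CPM or more the differences of Acta2, Tagln and Lmod1 were 8.20, 6.69 and 4.29.

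Other thin filament and myosin genes were shared by both classes at unequal levels. Tpm2, a tropomyosin, had a median of 1140 CPM in smooth muscle-like and 60.6 CPM in pericyte-like cells (difference 3.35), and 23 smooth muscle-like cells exceeded all pericyte-like cells. The kinase gene Mylk, whose product switches on smooth muscle myosin, ranged from 186 to 4980 CPM against 0 to 1946 CPM (difference 1.88). Myl9, the regulatory light chain, ranged from 935 to 8096 CPM against 733 to 3328 CPM and stayed just short of 2-fold at 0.95. Differences of Tpm1 (1.62), Flna (2.27), Ppp1r12b (3.94) and Ppp1r14a (1.03) were also past 2-fold, while Smtn (0.75), Myl6 (0.73), Cald1 (0.59), Synpo2 (0.40) and Des (0.32) were not. Among cells with Cldn5 at 200 CPM or more Tpm2 (1.87) and Ppp1r12b (1.94) remained past 2-fold, whereas Mylk (0.93), Flna (0.85), Tpm1 (0.81) and Ppp1r14a (0.68) did not. Des, the intermediate filament desmin, thus did not separate the classes: 16 of 33 smooth muscle-like cells had none.

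Cnn1 (calponin) was carried by a few cells. It had counts in 8 of 33 smooth muscle-like cells, with a highest value of 2139 CPM, and in 4 pericyte-like cells. The summed difference was 6.22, but -0.47 among cells with Cldn5 at 200 CPM or more.

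**Figure D2:**
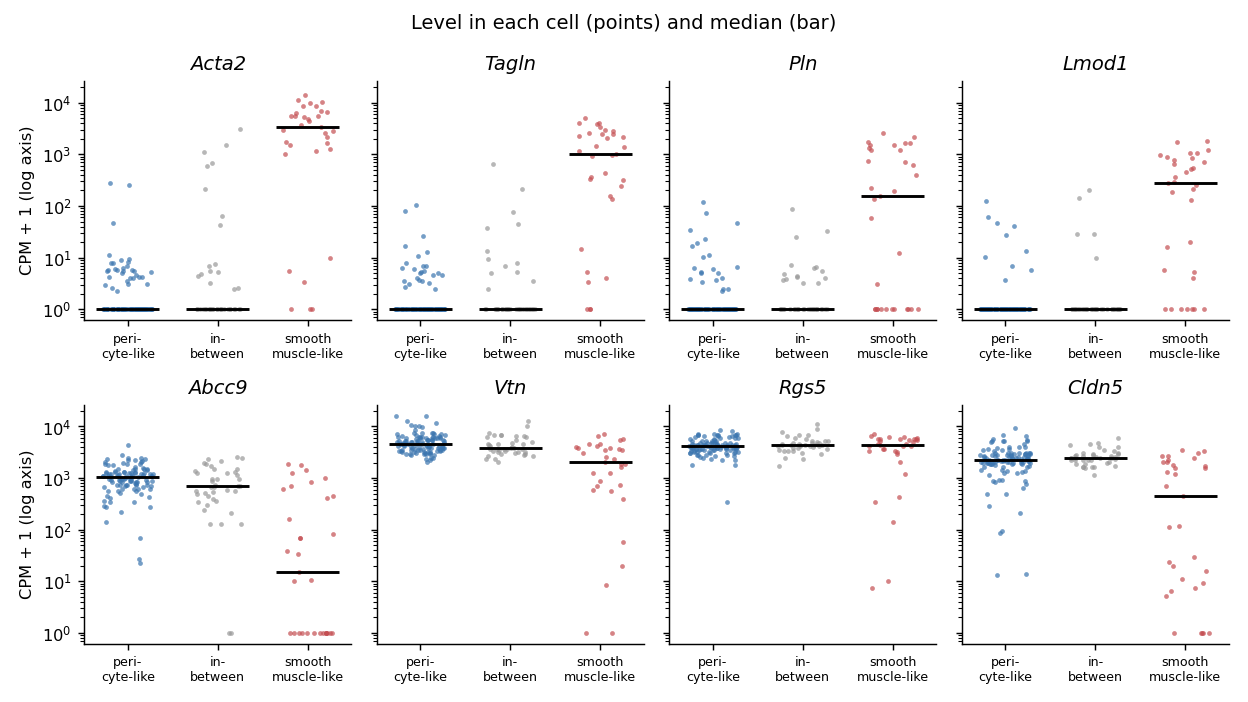
Level of 8 genes in each cell (points, CPM + 1 on a log axis) in pericyte-like, in-between and smooth muscle-like cells, with the median as a bar. Acta2, Tagln, Pln and Lmod1 are near 0 in most pericyte-like cells and spread over the whole axis in smooth muscle-like cells; Rgs5 medians are 4408 CPM in smooth muscle-like and 4108 CPM in pericyte-like cells, and Cldn5 splits the smooth muscle-like cells.

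Many contractile genes are known targets of serum response factor, which binds the CArG box, so the promoter sequence of these genes was read in the RefSeq windows of GRCm38.p6 (250 bases before to 50 after a start site). The sites of Acta2, Myl9 and Myl6 are shown because only these 3 of 16 contractile genes with a window held a box. A box here has at most 1 G or C in its core of A and T. Asb2 is shown because it was among the largest differences outside the list and its box has A and T only. Boxes with 1 G or C in the windows of Myl9, Pdlim3, Gsn, Rcan2, Bok, Ddc and Ggt1 are not shown. The box is in capitals, the flanks in lower case, and each run is read 5′ to 3′ on the gene's strand; both Acta2 boxes have 1 G or C in the core, and the other 3 have A and T only.
Acta2, 34 to 25 bases before the start, chr19:34255376-34255429, minus strand: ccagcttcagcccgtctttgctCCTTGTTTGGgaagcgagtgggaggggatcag
Acta2, 84 to 75 bases before the start, chr19:34255426-34255479, minus strand: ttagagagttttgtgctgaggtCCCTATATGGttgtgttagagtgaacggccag
Myl9, from 161 bases before the start, chr2:156775281-156775334, plus strand: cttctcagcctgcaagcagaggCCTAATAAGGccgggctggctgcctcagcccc
Myl6, 50 to 41 bases before the start, chr10:128493028-128493081, minus strand: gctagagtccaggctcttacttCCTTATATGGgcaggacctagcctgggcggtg
Asb2, 64 to 55 bases before the start, chr12:103356034-103356087, minus strand: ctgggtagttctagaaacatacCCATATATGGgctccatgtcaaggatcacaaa

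The strict box, which reads alike on both strands, was in the windows of 488 of 27025 genes (1.81%) and of 1.62% of the 8081 tested genes with a window. It was in 25 of 852 genes that were 2-fold higher in smooth muscle-like cells (2.93%) and in 10 of 933 that were higher in pericyte-like cells (1.07%). With 1 G or C allowed in the core, which includes the strict box, the shares were 10.8% of tested genes, 13.6% and 9.33%. Of 16 contractile genes with a window, 2 held the strict box (12.5%) and 3 either form, of 18 adhesion and LIM-domain genes of smooth muscle 2 held the strict box (11.1%) and 6 either form (33.3%), and of 16 pericyte identity genes 0 held the strict box and 2 either form. Myl6, with a strict box, differed by 0.73, and Acta2, with 2 relaxed boxes, by 9.50. Tagln and Myh11 have no window in the table. A match is a description of letters and not a bound site.

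A list of adhesion, LIM-domain and other genes typical of smooth muscle was higher in smooth muscle-like cells for 16 of its 24 genes, all of which passed, and 0 were 2-fold higher in pericyte-like cells. The list's median was 1.44 (plate 209, 1.49; plate 213, 1.48), and 0.49 among cells with Cldn5 at 200 CPM or more. Pdlim3, a LIM-domain protein of actin anchoring sites, had a median of 253 CPM in smooth muscle-like cells and counts in 3 of 110 pericyte-like cells (difference 8.27). Nrip2 (888 against 15.1 CPM, difference 5.79) exceeded all pericyte-like cells in 24 of 33 cells. Map3k7cl (5.51), Sncg (5.02), Itga8 (4.68), Mustn1 (4.07) and Csrp1 (2.94) were also higher. Nrip2, a nuclear receptor interacting protein, Sncg, a synuclein, Map3k7cl and Mustn1 are not adhesion genes. Vinculin, talin, integrin beta-1 and integrin-linked kinase, general parts of cell adhesions, were within 2-fold (Vcl 0.43, Tln1 0.78, Itgb1 0.87 and Ilk 0.33).

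Susd5 is on the same list and had 1661 counts in smooth muscle-like cells and 1 in pericyte-like cells, a ratio of levels of 5856 (1050 to 231450). Its counts came from 10 smooth muscle-like cells, 1 of which held 44.2% of them.

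Among all genes, named by size of difference with a count in most cells of the class, Asb2, Gpr20, Palld and Gsn stood near the markers. Asb2, a subunit of a ubiquitin ligase that targets filamins in muscle, ranged from 0 through 338 to 1964 CPM in smooth muscle-like cells and was at most 45 CPM in pericyte-like cells. Its difference was 8.40, and 26 of 33 smooth muscle-like cells exceeded all pericyte-like cells. Gpr20, an orphan receptor gene, was at 339 against 0.556 CPM (difference 7.77). Palld, which crosslinks actin (difference 7.09), and Gsn, which severs actin filaments (698 against 7.04 CPM, difference 6.44), were also among the 15 largest. Gsn was higher still, at 5279 CPM, in the 34 cells removed for Col1a1.

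Calcium handling was divided. Of 17 calcium entry, store and pump genes, 7 were 2-fold higher in smooth muscle-like cells and 2 in pericyte-like cells, with a median of 0.92. Pln (phospholamban, the brake on the sarcoplasmic calcium pump) was at 0, 152.8 and 2570 CPM in the lowest, median and highest smooth muscle-like cell. In pericyte-like cells it was at 0 in 88 of 110 and at most 117.4 CPM. Pln was above all pericyte-like cells in 18 smooth muscle-like cells but absent from 12, and its summed difference was 7.18 (544 against 2.75 CPM). The pump it restrains, Atp2a2, differed by 2.19 (515 against 112.2 CPM), and Cacnb2 (2.88), Cacna2d1 (2.43) and Trpc6 (1.99) were higher too, though 1 cell held 41.5% of the Cacnb2 and 49.2% of the Trpc6 counts. The pore of the L-type channel, Cacna1c, was at 0.92. Atp2a3 (-0.01) and the calcium store protein gene Casq2 (-0.02; 722 against 731 CPM) were level, and the receptor of inositol trisphosphate Itpr2 (-1.26) was higher in pericyte-like cells.

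Potassium channel genes were divided between the classes. Of 8 that passed besides Kcnj8, 4 were 2-fold higher in smooth muscle-like cells and 2 in pericyte-like cells, with a median of 1.53. The voltage-gated subunit genes Kcna5 (92.9 against 0.124 CPM) and Kcnab1 (213 against 1.2 CPM) differed by 6.38 and 6.60, and Kcna5 was above all pericyte-like cells in 19 smooth muscle-like cells. Kcnk3, a background channel, differed by 2.26. Kcnma1, the pore of the large calcium-activated channel, differed by 3.44, but 1 cell held 71.2% of its counts and the difference was -0.88 among cells with Cldn5 at 200 CPM or more. Its smooth muscle partner Kcnmb1 was at 0.81.

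Abcc9 went the other way. It encodes the sulfonylurea receptor that joins Kcnj8 in the ATP-sensitive channel, and its gene (chromosome 6, 142587862 to 142702766 in GRCm38.p6) neighbours Kcnj8 (142564837 to 142571614), one of the genes of the rule. Abcc9 was at 0, 14.4 and 1897 CPM in the lowest, median and highest smooth muscle-like cell and at 22, 1042 and 4438 CPM in pericyte-like cells. All 110 pericyte-like cells were above the smooth muscle-like median, though 4 smooth muscle-like cells were above the pericyte-like median. The summed difference was -1.66. It was -3.13 when the 6 smooth muscle-like cells with little Acta2 were left out, and -1.07 among cells with Cldn5 at 200 CPM or more.

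Cyclic nucleotide signalling leaned to smooth muscle-like cells, with 5 of 14 genes higher there, 2 in pericyte-like cells and a median of 0.52. Phosphodiesterase genes Pde3a (2.96) and Pde5a (1.54) and Irag1, a target of cGMP-dependent kinase on calcium stores (1.85), were higher, while the nitric oxide receptor subunit Gucy1b1 was at high and like levels (988 against 842 CPM, difference 0.23).

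Receptors for vasoactive signals differed gene by gene. Of 20, 8 were 2-fold higher in smooth muscle-like cells and 1 in pericyte-like cells, but the median was -0.22 and its sign was not stable (-0.08 and 0.20 on the plates). Olfr78, an olfactory receptor family member known from vascular smooth muscle, had 2246 counts in 24 smooth muscle-like cells and 1 count in pericyte-like cells, a ratio of levels of 7919 (1420 to 312910). Its relative Olfr558 differed by 3.50 (791 against 69.1 CPM). The neuropeptide Y receptor Npy1r (305 against 29.6 CPM, 3.32) and serotonin receptor Htr1b (132.8 against 10.3 CPM, 3.56) were higher in smooth muscle-like cells. Prostanoid receptor genes Ptgir and Ptger3 were too, but in 7 and 5 of 33 cells. The endothelin receptor Ednra (-0.50), the thromboxane receptor Tbxa2r (-0.19) and P2ry14 (-0.50) were within 2-fold, and the sphingosine phosphate receptor S1pr3 was higher in pericyte-like cells (409 against 919 CPM, -1.16; -1.57 among cells with Cldn5 at 200 CPM or more).

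Regulators of G protein signalling gave a list median of -0.01, with 3 of 9 genes higher in smooth muscle-like cells and 2 in pericyte-like cells. Rgs5, often used as a pericyte marker, ranged from 6.5 to 7255 CPM with a median of 4408 CPM in smooth muscle-like cells and from 343 to 8574 CPM with a median of 4108 CPM in pericyte-like cells. The ranges overlapped nearly whole and the summed difference was -0.01. Rgs4 (-0.10) was also level, whereas Rgs7bp (3.18) was higher in smooth muscle-like cells.

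**Figure D3:**
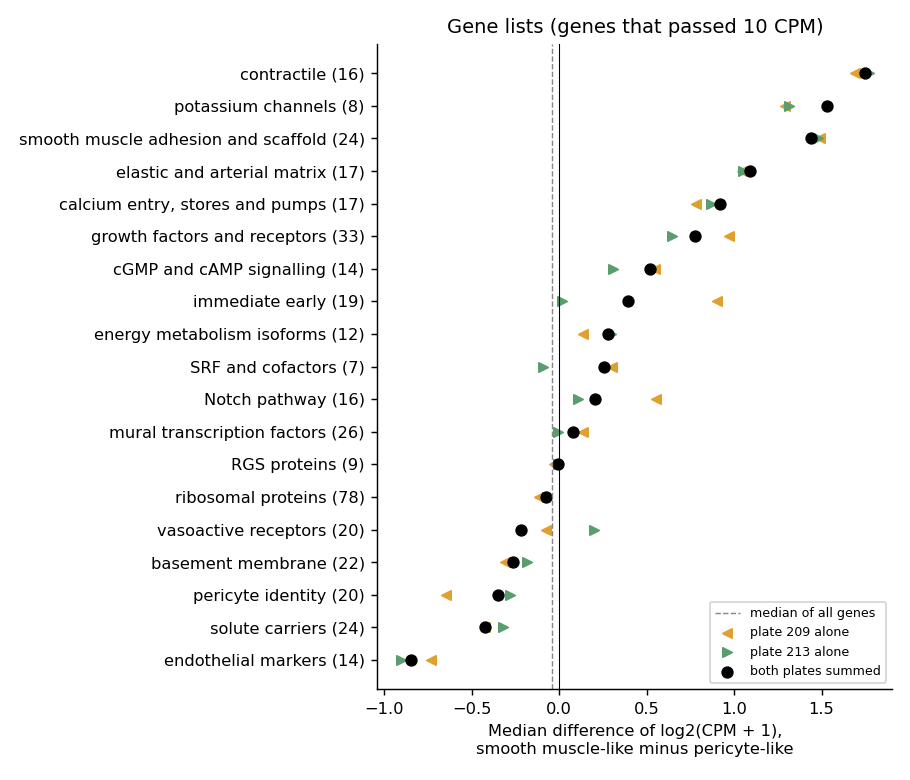
Median difference of log2(CPM + 1), smooth muscle-like minus pericyte-like (x axis), for 19 gene lists, with the number of genes that passed 10 CPM in parentheses; black points are both plates summed, triangles each plate alone, and the dashed line the median of all genes. Contractile, potassium channel, adhesion and elastic matrix lists lie above 1, and the endothelial list is lowest at -0.85.

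Pericyte identity genes had a smaller median difference than contractile genes. All 20 passed besides the genes of the rule, 5 were 2-fold higher in pericyte-like cells and 2 in smooth muscle-like cells, and the median was -0.35 (-0.65 and -0.28 on the plates). Among cells with Cldn5 at 200 CPM or more it was -0.02. It was -0.70 when the 6 smooth muscle-like cells with little Acta2 were left out, and with Pecam1 under 10 CPM (14 and 6 cells) it was -1.62, beside 2.20 for the contractile list. Vtn (vitronectin, a pericyte product of the central nervous system) was at 0, 2088 and 7284 CPM in smooth muscle-like cells and at 2060, 4661 and 16266 CPM in pericyte-like cells, with a difference of -0.81. Atp13a5, a P-type ATPase and brain pericyte marker, was at 391 against 1140 CPM in the median cells and differed by -1.13. Vtn had counts in 31 and Atp13a5 in 28 of 33 smooth muscle-like cells.

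Ggt1 (gamma-glutamyltransferase, an enzyme of capillary pericytes) gave the largest difference of this list. It was at 0 in 24 of 33 smooth muscle-like cells and had a median of 341 CPM in pericyte-like cells, and the summed levels were 66.9 and 401 CPM (-2.57). It was at 104.7 CPM in the cells removed for Pecam1, below the pericyte-like level, and still at -1.99 among cells with Cldn5 at 200 CPM or more. Itih5 (-1.40) and Ifitm1 (-1.03) were higher in pericyte-like cells, but Itih5 was at a like level in the cells removed for Pecam1 (1260 against 1274 CPM). Higd1b (-0.33), Ndufa4l2 (-0.21), Cox4i2 (-0.09), Cd248 (-0.34) and Cspg4 (0.37; NG2) were within 2-fold. Notch3, a receptor of all mural cells, was higher in smooth muscle-like cells (660 against 325 CPM, 1.02).

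Solute carriers were divided between the classes. Of 24 solute carriers 5 were 2-fold higher in pericyte-like cells and 4 in smooth muscle-like cells, beside 11.7% and 10.8% of all genes. The list's median was -0.42. The iron exporter Slc40a1 was at 0 in 20 of 33 smooth muscle-like cells and had a median of 391 CPM in pericyte-like cells (-2.80). The organic anion transporter Slc22a8 was at 0 in 18 smooth muscle-like cells and present in all 110 pericyte-like cells, with a median of 730 CPM (-2.40). Slc19a3, a thiamine transporter (-2.06), and Slc6a13, a GABA transporter (-1.27), followed. Among cells with Cldn5 at 200 CPM or more these 2 were at -1.37 and -1.04. In pericyte-like cells with Cldn5 under 200 CPM Slc19a3 was at 0 CPM and Slc6a13 at 234 CPM. Outside the list Slc38a5, a glutamine transporter, was among the largest of all differences (29.6 against 499 CPM, -4.03). Slc38a5, Slc40a1 and Slc22a8 were at 391, 440 and 534 CPM in the cells removed for Pecam1, and at -3.36, -2.12 and -1.75 among cells with Cldn5 at 200 CPM or more. In the 4 pericyte-like cells with Cldn5 under 200 CPM they were at 3.593, 0 and 432.4 CPM. With Pecam1 under 10 CPM in both classes Slc38a5 differed by -0.67 and was at only 1.4994 CPM in pericyte-like cells. Slc40a1 was then at 194.9 CPM in pericyte-like cells and differed by -2.09. The part of endothelial transcripts in these levels was not tested.

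The glucose transporter Slc2a1, abundant in endothelium, was at -0.48, and the muscle and fat glucose transporter Slc2a4 was higher in smooth muscle-like cells (114.95 against 16.3 CPM, 2.75). The apoptosis regulator Bok (-4.17), the carbonic anhydrase gene Car2 (-3.0) and Ddc, an enzyme of monoamine synthesis (-2.54), were among the 15 largest pericyte-like differences. They were at 105.59, 138.3 and 169.13 CPM in the cells removed for Pecam1, against 117.11, 204.08 and 204.92 CPM in pericyte-like cells. With Pecam1 under 10 CPM in both classes they were at 14.494, 3.9985 and 29.988 CPM in pericyte-like cells. The differences were then -3.31, -1.67 and -4.07.

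Matrix genes split by kind. Of 17 genes of elastic and arterial matrix 9 were 2-fold higher in smooth muscle-like cells and 2 in pericyte-like cells, with a median of 1.09 (1.05 on each plate). Elastin itself (Eln, 50.1 against 3.37 CPM, 3.55), its crosslinking enzyme Lox (63.5 against 0.124 CPM, 5.84) and Ltbp1, a binding protein of latent TGF-beta (583 against 60.9 CPM, 3.24), were higher. Eln had counts in 13 of 33 cells and Lox in 15. Npnt (4.56), Fbln2 (3.64) and Bgn (1.16) followed, and Fbln1 (-3.42) and Mfap2 (-1.09) were higher in pericyte-like cells. With counts thinned to the depth cut, Npnt and Fbln2 were each detected in 7 of 33 smooth muscle-like cells. Fbln2 was at 129.45 CPM in smooth muscle-like cells with Cldn5 at 200 CPM or more and at 0.53917 CPM in those under 200 CPM. For Npnt these levels were 78.693 and 36.664 CPM.

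Of 22 basement membrane genes 4 were 2-fold higher in each class, with a median of -0.26. Of all genes 10.8% were higher in smooth muscle-like cells and 11.7% in pericyte-like cells. Col18a1 (2.99), Col4a6 (2.37), Col4a5 (2.18) and Lama5 (1.90) were higher in smooth muscle-like cells. Col4a4 (-2.15), Nid2 (-1.42) and Lama4 (-1.09) were higher in pericyte-like cells, and the main collagen IV chain gene Col4a1 was level (509 against 605 CPM, -0.25). Among cells with Cldn5 at 200 CPM or more Col4a4 was at -2.30, Nid2 at -0.86 and Lama4 at -1.02. The sign of Nid2 turned with Pecam1 under 10 CPM.

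Transcriptional regulators of mural cells were examined as 2 lists. Myocd (myocardin, the coactivator that joins serum response factor at CArG boxes) was at 58.8 against 0.494 CPM (5.32), with counts in 22 of 33 smooth muscle-like and 3 of 110 pericyte-like cells, though 1 cell held 40% of the counts. Srf (0.26), Mrtfa (0.27) and Mrtfb (-0.66) were within 2-fold, and with Nexn (5.4) 2 of 7 genes of this list were higher in smooth muscle-like cells. Of 26 mural transcription factor genes 3 were higher in smooth muscle-like cells, among them Tbx2 (1.48) and Mef2c (1.2), and 2 in pericyte-like cells, among them Lef1 (-1.64), a factor of Wnt signalling. These counts are near the shares of all genes (10.8% and 11.7%), and the median was 0.08. Among cells with Cldn5 at 200 CPM or more Lef1 was at -0.95. In pericyte-like cells Lef1 was at 136.43 CPM with Cldn5 at 200 CPM or more and at 7.1858 CPM in the 4 cells under 200 CPM. The part of endothelial transcripts in the Lef1 level was not tested.

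Notch pathway genes had a median of 0.20, with 5 of 16 higher in smooth muscle-like cells and 1 in pericyte-like cells. The ligand Jag1 (163 against 42.1 CPM, 1.93) and the target Hey2 (1.30) were higher, and the target Heyl (0.08) was level. Growth factors and their receptors were higher in smooth muscle-like cells for 15 of 33 genes, against 1 in pericyte-like cells, with a median of 0.77. Angpt1, the ligand that steadies endothelium through its Tie2 receptor, was at 88 against 0.926 CPM (5.53), and Pdgfa was at 145.7 against 19.6 CPM (2.83). The neurotrophin Ntf3 had 769 counts against 1, in 15 of 33 cells. Igfbp5 (6.36), Inhba and Ntrk3 (4.42) were also higher, but 1 cell held from 59.6% to 63.3% of their counts.

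Of 12 genes of energy metabolism 3 were higher in smooth muscle-like cells, with creatine kinase B (Ckb, 727 against 190 CPM, 1.93) the most abundant of the named members. Of 19 immediate early genes 2 were higher in smooth muscle-like cells and 1 in pericyte-like cells, beside 10.8% and 11.7% of all genes. Their median of 0.39 was 0.90 on plate 209 and 0.02 on plate 213, and Nr4a1 was at 2.49 and 0.28. The 78 ribosomal protein genes had a median of -0.07 and none past 2-fold.

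Markers of other cell types were summed in each cell as well. Fibroblast markers besides the rule gene summed to a median of 416 CPM in smooth muscle-like and 363 CPM in pericyte-like cells, with 2 of 6 genes higher in smooth muscle-like cells and a median difference of 0.68. Astrocyte markers had a median sum of 9.40 against 78 CPM, with 2 of 4 genes higher in pericyte-like cells (-1.11), and oligodendrocyte markers 30.4 against 53.3 CPM (0.32 over 2 genes). Immune (12.9 against 9.23 CPM, -1.15 over 2 genes) and neuron markers (11 against 8.61 CPM, 1.00 for 1 gene) were near 0 in the median cell. Erythroid markers had a median of 0 in both classes and none passed 10 CPM.

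Smooth muscle-like cells varied among themselves. Myh11 chose the class, so its relations to other genes are a description that supports nothing, and the 33 cells include the 6 with little Acta2. Over the 33 cells, Spearman's rho with Myh11 was 0.79 for Acta2, 0.86 for Tagln, 0.84 for Lmod1 and 0.80 for Pln. It was -0.76 for Rgs5, -0.70 for Vtn, -0.68 for Abcc9 and -0.72 for Cldn5. Within the 16 cells with Cldn5 under 200 CPM it was 0.14 for Acta2, 0.45 for Tagln, 0.79 for Lmod1, 0.73 for Pln, -0.74 for Rgs5, -0.59 for Vtn, -0.27 for Abcc9 and -0.23 for Cldn5. Between Acta2 and Cldn5 rho was -0.70 over 33 cells and 0.25 over the 16, and between Tagln and Cldn5 it was -0.73 and -0.01. Cells share plates and a scale to a fixed total, so these values only describe this set of cells: Lmod1, Pln, Rgs5 and Vtn followed Myh11 in both sets, and Acta2 only in the whole.

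For description, with bands chosen after values were seen, the 33 cells were divided by Myh11 into 500 to under 1000 CPM (11 cells), 1000 to under 3000 CPM (7) and 3000 CPM or more (15). Summed Acta2 was at 908, 2639 and 5767 CPM in these bands, Tagln at 126.4, 794 and 2390 CPM, Pln at 34, 149.6 and 1218 CPM, and Asb2 at 80.9, 305 and 698 CPM. Cnn1 was at 1.63, 0 and 561 CPM, Susd5 at 0, 2.32 and 437 CPM and Kcnab1 at 0.545, 33.1 and 500.5 CPM, each highest in the band of 3000 CPM or more. Olfr78 was spread over all 3 bands at 96.4, 232 and 394 CPM.

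Pericyte genes ran against the bands at different steps. Abcc9 was at 1092 CPM in cells with Myh11 under 50 CPM, 909 CPM in the in-between cells, and then 664, 350 and 44.9 CPM in the 3 smooth muscle-like bands. Slc40a1 (495, 547, 151.4, 51.6 and 2.90 CPM) and Itm2a, an endothelial marker (2319, 2372, 1534, 789 and 32.7 CPM), were lower in each smooth muscle-like band than in the one before. Vtn (4114, 3894, 3579, 3296 and 795 CPM) and Cldn5 (2041, 2415, 1876, 1956 and 69.4 CPM) were of like level up to the last band only. Rgs5 was highest in the band of 500 to under 1000 CPM (5338 CPM) and lowest at 3000 CPM or more (2560 CPM). The endothelial list sum was at most 2839 CPM in the 15 cells of the last band, against a median of 14204 CPM in cells at 500 to under 1000 CPM, so Vtn, Abcc9 and endothelial transcripts were lowest in the same cells.

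**Figure D4:**
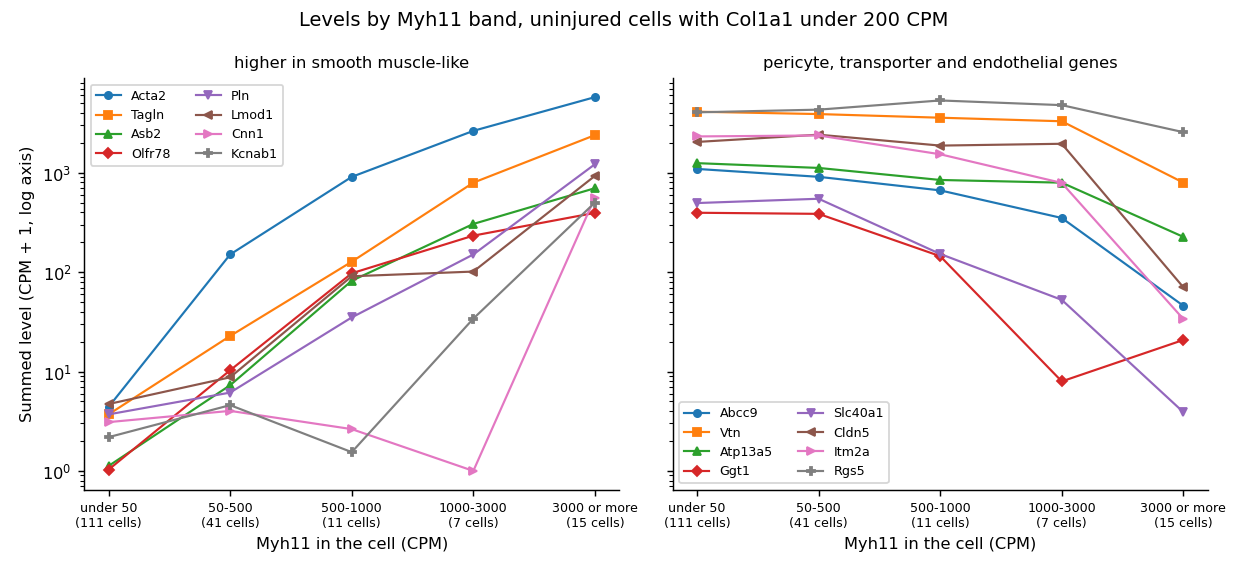
Summed level (CPM + 1, log axis) of genes higher in smooth muscle-like cells (left) and of pericyte, transporter and endothelial genes (right) in 5 bands of Myh11 (x axis, CPM in the cell, with the number of cells). Acta2 goes from 3.40 to 5767 CPM across the bands, Cnn1 and Kcnab1 are highest in the last, and Cldn5 and Vtn are far lower in the last band than in any other.

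In-between cells were nearer to pericyte-like cells for most of the genes that differed between the classes. Of the 1128 genes 2-fold higher in smooth muscle-like cells, 905 (80.2%) had an in-between level nearer to the pericyte-like level and 862 (76.4%) were within 2-fold of it. Of the 1219 genes on the pericyte-like side, 992 (81.4%) were nearer to it and 1047 (85.9%) within 2-fold. These shares cover only genes chosen for a difference between the classes, of which the smooth muscle-like class is the smaller. The share over all tested genes was not computed, so likeness over all genes was not tested. Of the 41 in-between cells, 5 had Acta2 at 500 CPM or more. Their summed Acta2 was 150 CPM, Tagln 21.8 CPM and Cldn5 2415 CPM.

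The sorted population, which the rule did not use, split the classes unequally. Of 33 smooth muscle-like cells 11 were tdTomato+EGFP+, or 33.3% (18 to 51.8%), and of 110 pericyte-like cells 67, or 60.9% (51.1 to 70.1%). The shares were 35.7% and 67.9% on plate 209 and 31.6% and 54.4% on plate 213, lower in smooth muscle-like cells on both. Read the other way, smooth muscle-like cells made up 10.9% (5.56 to 18.7%) of the tdTomato+EGFP+ cells that passed the cuts and 26.2% (17.2 to 36.9%) of the 84 tdTomato-EGFP+ cells. The populations were sorted separately, so these shares are those of the plates and not of the tissue.

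The share was lowest in the cells with the most Myh11. At 3000 CPM or more 2 of 15 cells (13.3%, 1.66 to 40.5%) were tdTomato+EGFP+. It was 5 of 11 (45.5%, 16.7 to 76.6%) at 500 to under 1000 CPM and 4 of 7 (57.1%, 18.4 to 90.1%) at 1000 to under 3000 CPM. In-between cells had 23 of 41 (56.1%, 39.7 to 71.5%). The intervals of the 3 smooth muscle-like bands overlap, so the counts do not set an order among them. The share also moved with Cldn5: it was 3 of 16 (18.8%) in smooth muscle-like cells under 200 CPM and 8 of 17 (47.1%) at 200 CPM or more, and whether Myh11 or Cldn5 carries it was not tested. Requiring Acta2 at 500 CPM or more gave 10 of 27 (37%, 19.4 to 57.6%).

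**Figure D5:**
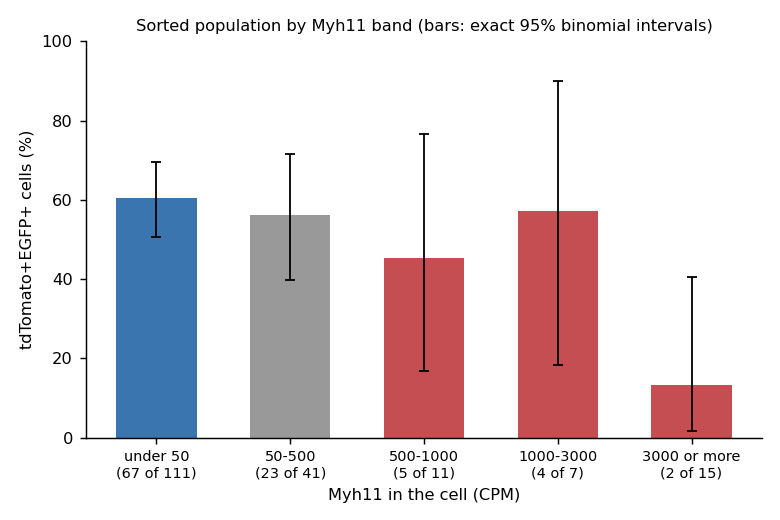
Percent of cells sorted as tdTomato+EGFP+ (y axis) in 5 bands of Myh11 (x axis, CPM in the cell; tdTomato+EGFP+ cells of all cells in parentheses), with exact 95% binomial intervals. Shares lie between 45.5% and 60.4% in the first 4 bands and at 13.3% in cells with 3000 CPM or more, where the interval reaches 40.5%.

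The class difference was present within each sorted population. Acta2 was at 3677 against 3.71 CPM among tdTomato-EGFP+ cells and 2424 against 3.29 CPM among tdTomato+EGFP+ cells, differences of 9.61 and 9.14. Tagln differed by 8.83 and 7.75, Pln by 8.05 and 5.31, and the contractile list by a median of 1.83 and 1.41. Abcc9 differed by -1.77 and -1.58, whereas Vtn differed by -1.15 and -0.35 and Atp13a5 by -1.44 and -0.75. The endothelial list's median was -1.20 among tdTomato-EGFP+ cells and -0.45 among tdTomato+EGFP+ cells. It was smaller in size among the latter, as were Vtn and Atp13a5, whereas Abcc9 changed little. A link between these changes was not tested.

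Slc1a3, the gene behind the Cre driver, did not separate the classes. It was at 37.7 CPM in smooth muscle-like and 37.6 CPM in pericyte-like cells. It had counts in 14 of 33 smooth muscle-like cells with a highest value of 532 CPM, and in 56 of 110 pericyte-like cells with a highest value of 363 CPM. By sort, its level in smooth muscle-like cells was 84.8 CPM with tdTomato and 12.2 CPM without it. In pericyte-like cells the levels were 47.5 and 22.1 CPM, higher with tdTomato in both classes. In smooth muscle-like cells 1 cell held 46.8% of the counts.

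At 3 days after spinal cord injury, by the labels, the same cuts found 5 smooth muscle-like cells, all tdTomato-EGFP+, and 3 tdTomato+EGFP+ and 51 tdTomato-EGFP+ pericyte-like cells. Injured cells lay on other plates (211 and 215), and few tdTomato+EGFP+ cells there had Col1a1 under 200 CPM (5 cells, against 73 tdTomato-EGFP+), so the split was not compared with that of uninjured cells.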

How the data were processed

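Single perivascular cells were profiled by Smart-seq3 and sequenced on a NextSeq 500. The authors deposited a table of raw counts, whole numbers that were not normalised, with 56701 gene rows and 92 rows of ERCC spike-in RNA, which were left out and held 0% of the counts of uninjured cells. Of 1968 cell columns 503 matched the labels, and the other 1465 were not used. The submitters' processing notes name the build mm10; the aligner, the annotation release, the use of strand, the treatment of reads shared by like genes and the choice of reads or molecules as counted unit are not given in the sources used here. Levels are not divided by gene length, so they were compared between cells and not between genes. PCR reads are not independent molecules.

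Cells were assigned to classes by the cuts given in the text, on CPM of the cell. Counts were summed over each class, scaled to CPM and compared as differences of log2(CPM + 1) over genes at 10 CPM or more in the mean of the classes; the pseudocount of 1 CPM understates differences of low genes. A difference of 1 or more was called. No label names an animal, so no test was run; plates and sorted populations were given separately, and these spreads may be technical. Intervals are exact Poisson (levels), exact binomial (shares, Clopper-Pearson) or, for ratios with 1 to 3 counts in a class, exact conditional binomial intervals at 95%. No 2 cell columns were identical. Cells were sorted singly into wells and no doublet caller was run, so doublets and attached pieces of other cells were not tested for.

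The members and 25 gene lists were chosen with earlier results of these data known. Named genes are those of the rule, members of the lists, and the 15 largest differences in each direction with 50 CPM or more in the higher class, detection in at least 50% of its cells once thinned to 20000 counts, the same direction on both plates and among tdTomato-EGFP+ cells, and no cell with over 30% of the counts; genes without a name, of the mitochondrial genome or for ribosomal proteins were excluded. Promoter sequences and gene positions are those of RefSeq on GRCm38.p6, in which 10046 of the 10397 tested symbols were found. The summing and calling steps were tested on simulated data. Alternatives changed each cut, the depth minimum, the Pecam1 filter, the plate, the scaling (TMM of edgeR 4.0.16 in R 4.3.3, and median-of-ratios size factors), the pseudocount, the filter, the sorted population and the deepest cell; requiring Acta2, or Cldn5 at 200 CPM or more, was added after seeing the data. Python 3.11.15, numpy 2.4.6, pandas 2.3.3 and scipy 1.17.1 were used.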

Additional observations from a re-analysis of the deposited data

Results flagged for a closer look

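The difference between smooth muscle-like and pericyte-like cells had opposite directions in the sorted populations, by 2-fold or more in each, for 2 of the genes named. Rgs2, a regulator of G protein signalling, was at 3.72 among tdTomato-EGFP+ cells and at -3.05 among tdTomato+EGFP+ cells (log2 difference, smooth muscle-like minus pericyte-like), and 1 smooth muscle-like cell held 96.3% of the class's counts of the gene. Ckm, the muscle creatine kinase, was at 5.27 and at -1.11, and 1 cell held 95% of its counts. Each sorted population is 1 sample, and whether the differences differ between the populations was not tested.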

How the results depend on the processing

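Each class is 1 sample, so alternatives show how values move and not how sure they are. With Pecam1 under 10 CPM in place of below Pdgfrb, 14 smooth muscle-like cells (14.3% tdTomato+EGFP+) and 6 pericyte-like cells (33.3%) remained; 2885 and 2661 genes were then 2-fold higher in each, and the medians of the contractile, pericyte identity and endothelial lists were 2.20, -1.62 and -2.56. A Myh11 cut of 250 CPM gave 780 genes on the pericyte-like side and medians of 1.47 (contractile) and -0.53 (endothelial), and a cut of 1000 CPM gave 2023 genes and medians of 2.22, -0.89 and -1.95. A pseudocount of 10 CPM gave 736 genes on the pericyte-like side, and no filter on low values 2395 and 3301 genes. Single plates held 14 to 19 smooth muscle-like and 53 to 57 pericyte-like cells, and the pericyte identity median was -0.65 without plate 213. Among tdTomato-EGFP+ cells that median was -0.65 and the endothelial median -1.20; among tdTomato+EGFP+ cells the contractile median was 1.41 and the endothelial median -0.45. The mean of the cells' own CPM gave an endothelial median of -1.19. Chosen after seeing the data, Acta2 at 500 CPM or more in smooth muscle-like cells gave 2.00, -0.70 and -1.17, and Cldn5 at 200 CPM or more in both classes left 17 smooth muscle-like cells and medians of 0.82, -0.016 and -0.18. Over all 18 alternatives the contractile median stayed between 0.82 and 2.22 and the pericyte identity median between -1.62 and -0.016.

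The sign of a 2-fold value turned for Cnn1 (-0.47), Kcnma1 (-0.88), Rgs2 (-2.66) and Ckm (-0.87) among cells with Cldn5 at 200 CPM or more, for Rgs2 without plate 213 (-3.26) and among tdTomato+EGFP+ cells (-3.05), for Ckm among the latter (-1.11), for Nid2 with Pecam1 under 10 CPM (1.81), and for the immune marker list among tdTomato-EGFP+ cells (0.83). The cause was not tested. Of the other values of single genes 1825 moved by less than their spread over plates and sorted populations and 507 by more. None of these turned the sign of a 2-fold value, and smaller values were not screened for a turned sign. Among cells with Cldn5 at 200 CPM or more, Smtn went from 0.75 to -0.25 and Des from 0.32 to -0.36. Plates and sorted populations were compared but not paired: no paired analysis was possible because no label ties cells to an animal. The share of tdTomato+EGFP+ cells among the 33 smooth muscle-like cells has an interval from 18 to 51.8%.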
